A study of Arabidopsis thaliana with 15 samples.

Results

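The binding sites of 2 GFP-tagged MYB transcription factors were compared in Arabidopsis thaliana. They were GFP-MYB3R1, expressed from the MYB3R1 promoter, and GFP-MYB3R4mNES, a form of MYB3R4 expressed from the MYB3R4 promoter; both transgenes were in the Col0 background. The labels do not spell out the suffix mNES (NES is the usual abbreviation of nuclear export signal). The comparison used 5 of the 15 samples of the series, namely 3 MYB3R1 and 2 MYB3R4mNES ChIP libraries, chosen by their labels. Dissected inflorescence meristems of plants grown in long days of 16 h light and 8 h dark were the tissue of all samples, and the antibody against GFP was ab290. The series holds 8 ChIP and 7 input samples and no ChIP from untagged plants. The labels name in-house and company library preparations without saying which sample had which. Nothing in them tells whether the replicates were separate sets of plants, and the p-values measure only the spread between these libraries.

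MYB3R proteins are MYB factors with 3 repeats in their DNA-binding domain. They recognise the mitosis-specific activator (MSA) element in promoters of genes that are transcribed in G2 and M phase. MYB3R4 is known as an activator of these genes. MYB3R1 acts as an activator together with MYB3R4, and as a repressor with other members of the family in complexes that also hold E2F and retinoblastoma proteins. In a meristem only part of the cells are in G2 or M at any time. In ChIP from whole tissue, binding in fewer cells and weaker binding per cell cannot be told apart.

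Each library is a list of peaks called by the authors over input, with a fold enrichment, a p-value and a q-value per peak. A summit is the position of highest enrichment within a peak. Used were peaks on chromosomes 1 to 5, without the stretch of chromosome 2 between 3.2 and 3.7 Mb. A gene was called bound when a summit lay from 1000 bp outside to 200 bp inside either of its ends. No read counts were at hand, so the depth is unknown, and a site without a peak is one not called in that list. Whether the tissue is as labelled could not be checked, because peak lists hold no transcript levels.

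The list labelled MYB3R4mNES replicate 1 carried peak names that go against its label. All 308 of its deposited peaks bore the same name stem as the list labelled MYB3R4 replicate 3, the form without the suffix. The lists were not copies, since 0 peaks had both start and end in common. Of its 171 used peaks, 88.9% overlapped a peak of MYB3R4 replicate 3 and 86.0% a peak of MYB3R4mNES replicate 2. Among the 171 strongest peaks of each list, the shares were 78.9% and 80.7%, against 29.2% to 39.2% for the MYB3R1 libraries. MYB3R4 replicates 1 and 2 overlapped 70.8% and 59.6% at this length. MYB3R4mNES replicate 2 was overlapped by MYB3R4 replicate 3 to a like extent (80.1%), so the likeness to MYB3R4 replicate 3 was not particular to replicate 1. The source of the mismatch was not tested, and the differences between the groups are given with and without MYB3R4mNES replicate 1. The file names also followed 2 styles, with MYB3R1 replicate 3 and both MYB3R4mNES libraries in the same style. What the style stands for is not stated.

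MYB3R1 was called at far more places than MYB3R4mNES. After the exclusions the MYB3R1 lists held 11444, 19653 and 7076 peaks in replicates 1, 2 and 3, and the MYB3R4mNES lists held 171 and 215. The groups did not overlap (12724 ± 6386, SD, n = 3, against 193 ± 31.1, SD, n = 2; p = 0.20 by a two-sided exact permutation test over libraries). Without MYB3R4mNES replicate 1 the difference of 12531 peaks became 12509, and with MYB3R1 replicate 3 as the only MYB3R1 library it was 6883. With 3 libraries against 2, this exact permutation test cannot go below p = 0.20. All 24 group comparisons made here therefore miss 0.05, and the adjusted p (Benjamini-Hochberg) belonging to 0.20 is 0.209. The MYB3R1 peaks covered 6.75%, 14.8% and 4.43% of the 119 Mb between the first and last genes of the chromosomes, and the MYB3R4mNES peaks covered 0.128% and 0.159%. The highest fold enrichment of a list was 26.1, 12.6 and 18.4 for MYB3R1 and 5.70 and 16.7 for MYB3R4mNES. Fold enrichments are the authors' values, depend on each list's input and depth, and were not tested between lists.

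Most MYB3R4mNES sites were also MYB3R1 sites. Merging the overlapping peaks of both MYB3R4mNES libraries gave 237 sites. Of these, 170 (71.7%) had a peak in all 3 MYB3R1 libraries, 19 in 2, 19 in 1 and 29 in none. Per library, MYB3R1 replicates 1, 2 and 3 overlapped 73.7%, 60.2% and 83.6% of the peaks of MYB3R4mNES replicate 1. The shares of MYB3R4mNES replicate 2 were 80.9%, 72.1% and 87.9%. In the other direction, 0.524% to 2.91% of the MYB3R1 peaks were overlapped. MYB3R1 replicate 3, with the shortest MYB3R1 list, covered the highest share of both MYB3R4mNES lists, and replicate 2, with the longest, covered the lowest.

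The sites that MYB3R1 lacked lay almost entirely where genes are sparse. After this had been seen in the data, sites were divided at 10 protein-coding genes starting within 50 kb. Of the 177 gene-rich MYB3R4mNES sites, 169 (95.5%) had a peak in all 3 MYB3R1 libraries. Of the 60 gene-poor sites, 1 did, 16 had a peak in 2, 18 in 1 and 25 in none. Among gene-rich peaks alone, MYB3R1 libraries overlapped 95.4% to 98.7% of a MYB3R4mNES list. The gene-poor sites were on chromosome 4 between 3.05 and 4.01 Mb (27 sites), chromosome 5 between 11.2 and 12.9 Mb (15), chromosome 3 between 13.6 and 14.2 Mb (14), chromosome 2 (3) and chromosome 1 (1), in TAIR10 coordinates. These stretches include the surroundings of the centromeres, where repeats are dense.

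**Figure D1:**
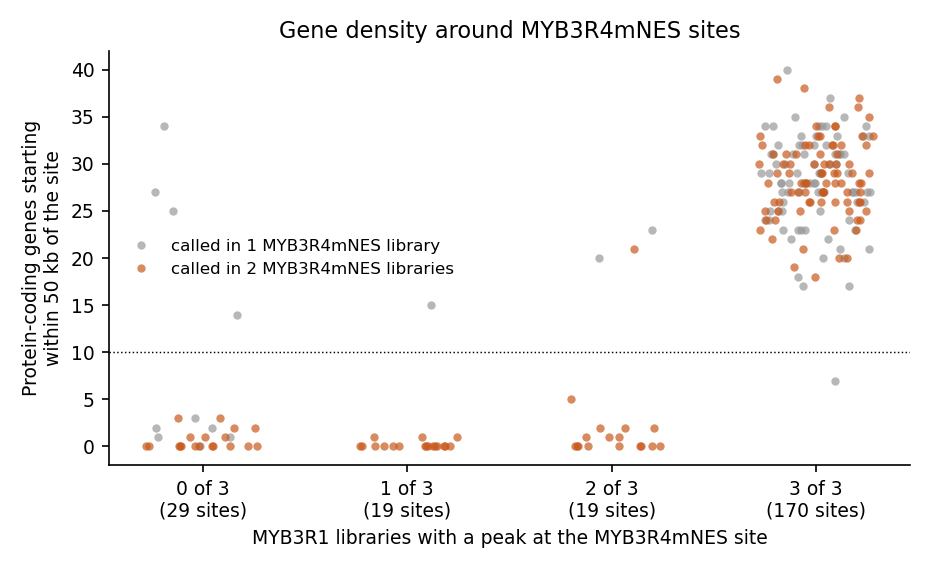
Number of protein-coding genes starting within 50 kb of each of the 237 MYB3R4mNES sites (vertical axis), by the number of MYB3R1 libraries with a peak there (horizontal axis). Each point is a site, coloured by the number of MYB3R4mNES libraries that called it, and the dotted line marks 10 genes. The 170 sites with all 3 MYB3R1 libraries lie at high gene counts with 1 exception, and most of the others lie near 0.

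Gene-poor sites differed from gene-rich ones in other readouts as well. Both MYB3R4mNES libraries called 53 of the 60 gene-poor sites (88.3%) and 87 of the 177 gene-rich sites (49.2%). In MYB3R4mNES their median fold enrichment was 1.78 and 2.17, against 2.74 and 2.97 at gene-rich sites. MYB3R1 replicate 3 called 34 of them, replicate 1 called 18 and replicate 2 called 1. At the gene-rich sites the 3 MYB3R1 libraries called 171, 172 and 171 in the same order. Gene-poor peaks made up 0.673%, 0.834% and 1.10% of the MYB3R1 lists and 36.8% and 27.4% of the MYB3R4mNES lists, without overlap (0.870% ± 0.217, SD, n = 3, against 32.1% ± 6.65, SD, n = 2; difference -31.3 points, and -26.6 without MYB3R4mNES replicate 1; p = 0.20, exact permutation test). As numbers of peaks they were 77, 164 and 78 against 63 and 59, so the groups were closer in the number of gene-poor peaks than in the length of their lists. Mitochondrial peaks numbered 71, 0 and 36 in MYB3R1 and 78 and 79 in MYB3R4mNES. The gene-poor sites were defined by MYB3R4mNES peaks, so the calls of these 2 libraries cannot be set against their mitochondrial peaks. Among the MYB3R1 libraries, replicates 1, 2 and 3 called 18, 1 and 34 of the sites and had 71, 0 and 36 mitochondrial peaks. The part of repeats, input and read mapping in these sites was not tested.

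Only 8 gene-rich MYB3R4mNES sites were not called in all 3 MYB3R1 libraries, and they are named here after their values were seen. Sites at WUS and CLV3, regulators of the stem cells of the shoot meristem, had a peak in MYB3R4mNES replicate 1 alone, with a fold enrichment of 3.64 and 3.02. The WUS site is at 7809080 to 7810642 and the CLV3 site at 11665042 to 11665676 on chromosome 2, over the transcribed gene in both cases. Both also had a peak in MYB3R4 replicate 3, at 6.73 and 4.46, the library whose name stem MYB3R4mNES replicate 1 bears. A MYB3R1 replicate 2 summit near WUS, at 2.81, lay outside that site.

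A pair of sites over PME31, a pectin methylesterase gene on chromosome 3, had peaks in MYB3R4mNES replicate 2 at 3.68 and 3.41 and in MYB3R4 replicate 3 at 4.72 and 5.24. MYB3R1 replicate 2 called the first of them at 1.99. The gene of MYB3R1 itself (PC-MYB1 in the annotation) had a MYB3R4mNES replicate 1 peak at 2.13 and MYB3R1 peaks at 2.68 and 2.38 in replicates 1 and 3 overlapping that site. By summit the gene was bound in MYB3R1 replicates 1 and 2 (2.68 and 1.37), and the replicate 3 summit lay outside the window. The remaining sites were at MEE60, AT2G16586 and AT1G61270. The MEE60 site had a MYB3R4mNES replicate 1 peak at 2.24 and no overlapping MYB3R1 peak. By summit the MEE60 gene was bound in all 3 MYB3R1 libraries (2.99, 3.63 and 2.01), outside that site. AT2G16586 had both MYB3R4mNES libraries at 1.85 and 2.15 and MYB3R1 at 1.55 and 1.40 in replicates 1 and 3. AT1G61270 had MYB3R4mNES replicate 1 at 2.58 and MYB3R1 at 5.60 and 5.02 in replicates 1 and 2. Thus 7 of the 8 were called in a single MYB3R4mNES library. Of the 87 gene-rich sites in both, 86 were in all 3 MYB3R1 libraries.

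The strongest MYB3R1 peaks were the ones that MYB3R4mNES shared, but not all of them. Gene-rich MYB3R1 peaks were ranked by fold enrichment within each library. Among ranks 1 to 50, both MYB3R4mNES libraries overlapped 62.7% ± 3.06 of the peaks (SD, n = 3 MYB3R1 libraries). The share fell to 25.3% ± 3.06 for ranks 51 to 100, 17.0% ± 5.20 for ranks 101 to 200, 4.56% ± 1.68 for ranks 201 to 500 and 1.07% ± 0.115 for ranks 501 to 1000. MYB3R4mNES replicate 2 alone gave 70.7% for the first 50 and 12.9% for ranks 201 to 500. Merged over replicates, 6132 MYB3R1 sites were called in all 3 libraries, of which 170 (2.77%) met a peak of at least 1 MYB3R4mNES library and 86 (1.40%) of both.

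**Figure D2:**
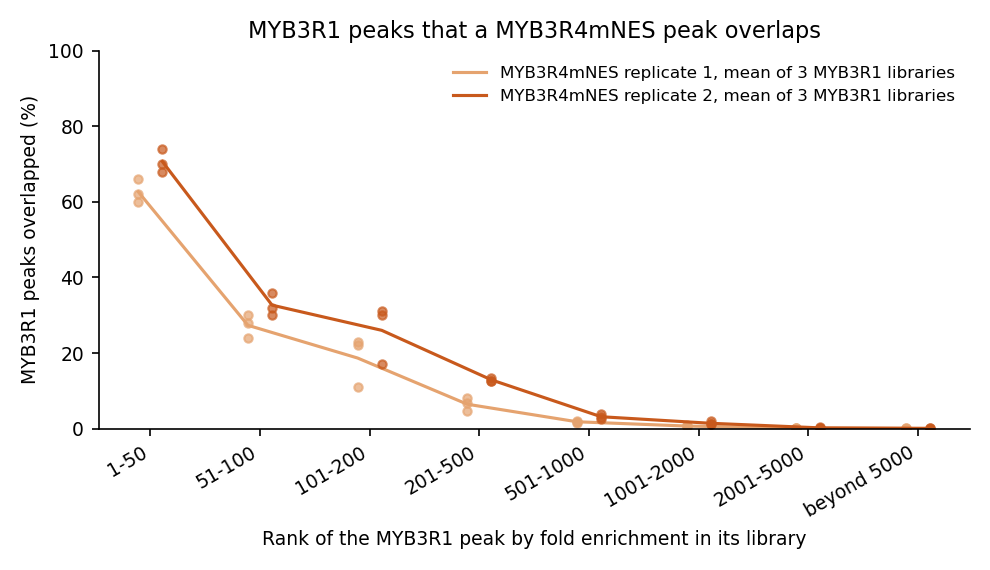
Share of gene-rich MYB3R1 peaks overlapped by each MYB3R4mNES list (vertical axis, percent), by the rank of the MYB3R1 peak in its own list (horizontal axis, rank 1 has the highest fold enrichment). Points are the 3 MYB3R1 libraries and lines their means. Among the first 50 the means are 62.7% and 70.7%, and among ranks 501 to 1000 they are 1.80% and 3.13%.

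In 34 sites the peak ranked among the first 50 in all 3 MYB3R1 libraries. Of these, 25 (73.5%) were called in both MYB3R4mNES libraries, 3 in replicate 2 only and 6 in neither. The 6 included the site between TUB7, a beta-tubulin gene, and ENOC, an enolase gene, with MYB3R1 fold enrichments of 19.8, 11.5 and 12.7. The sites of AT4G15830 (20.3, 10.3 and 11.8) and of AT5G60930 (17.0, 11.1 and 12.5) were in neither as well. The site at the D-type cyclin gene CYCD4;1 had 14.2, 10.6 and 8.17. MYB3R4 without the suffix had a peak at the AT4G15830 site in all 3 libraries (2.33, 3.06 and 2.74). At the sites of TUB7, AT5G60930, CYCD4;1 and TUA2, only MYB3R4 replicate 2 had a peak (2.34, 2.07, 2.29 and 2.61). The remaining site of the 6, at PSAT1 and BARD1, had no MYB3R4 peak. For comparison, AT5G40460, a member of the list of G1 regulators and inhibitors, was high in MYB3R1 (24.9, 12.2 and 18.4) and was called in both MYB3R4mNES libraries at 2.76 and 3.39. A strong MYB3R1 peak was therefore found both with and without a MYB3R4mNES peak.

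With lists cut to equal length the groups overlapped less than replicates did. Each list was cut to its 171 strongest peaks by p-value, the length of the shortest list. MYB3R1 and MYB3R4mNES then shared 29.2% to 42.7% of their peaks over the 6 library pairs (mean 36.5%). MYB3R1 replicates shared 81.3% to 88.3%, and MYB3R4mNES replicates 77.8% to 80.7%. Every pair between the groups thus lay below every pair of replicates. Among gene-rich peaks, cut to 108, the values were 39.8% to 50% (mean 44.8%) between groups, 81.5% to 84.3% for MYB3R1 replicates and 72.2% for MYB3R4mNES replicates. Pairs that share a library are not independent, so these shares carry no test.

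Where both proteins were called, summits were close together. The 86 gene-rich sites with a peak in all 5 libraries were examined for this. The median distance between a MYB3R1 and a MYB3R4mNES summit was 30.5 to 44 bp over the 6 pairs. Between MYB3R1 replicates it was 14.5, 30 and 34 bp, and between MYB3R4mNES replicates it was 31 bp. MYB3R1 replicates 1 and 2 stood closest together, and the other distances between replicates lay at or near the low end of the distances between groups. A summit of the other group lay within 50 bp at 57.0% to 70.9% of the sites. The median signed distance was between -5 and 2.5 bp in chromosome coordinates; without strand, a shift relative to the direction of the genes could not be measured.

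All 5 summits fell within 100 bp at 58 of the 86 sites and were spread over more than 200 bp at 10. The widest spreads were 2042 bp at PME5, a pectin methylesterase gene, 576 bp at AT5G66310 and 551 bp at OLEO1, an oleosin gene. At 34 sites (39.5%) the summits of the groups did not overlap, where a random order of 3 and 2 libraries would separate them at a share of 0.20. The median difference between the groups' mean positions was 29.75 bp over all 86. At equal list length, pairs between the groups had median distances of 28 to 33.5 bp, against 13 to 24 bp for MYB3R1 replicates and 25 bp for MYB3R4mNES replicates.

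MYB3R1 peaks were wider at the same places. At the 86 shared sites the median width was 1044, 1654.5 and 1513 bp in the MYB3R1 libraries and 569.5 and 655.5 bp in the MYB3R4mNES libraries (1404 ± 320 bp, SD, n = 3, against 612.5 ± 60.8 bp, SD, n = 2; difference 791 bp, and 748 bp without MYB3R4mNES replicate 1; p = 0.20, exact permutation test). At 80 of the 86 sites (93.0%) every MYB3R1 peak was wider than every MYB3R4mNES peak. Over the whole lists the medians were 615, 728 and 646 bp against 578 and 615 bp, which overlap (difference 66.5 bp, and 48 bp without MYB3R4mNES replicate 1; p = 0.40, exact permutation test). Among the 171 strongest peaks they were 960, 1336 and 1436 bp against 578 and 644 bp (difference 633 bp, and 600 bp without MYB3R4mNES replicate 1; p = 0.20, exact permutation test). Over the full gene-rich lists they were 664 ± 59.4 bp (SD, n = 3) against 565 ± 23.7 bp (SD, n = 2), without overlap (difference 98.75 bp, and 82 bp without MYB3R4mNES replicate 1; p = 0.20, exact permutation test). The difference in width was thus larger at strong and at matched sites than over whole lists. Width also moves with the fold enrichment and with depth, and their part in it was not tested.

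**Figure D3:**
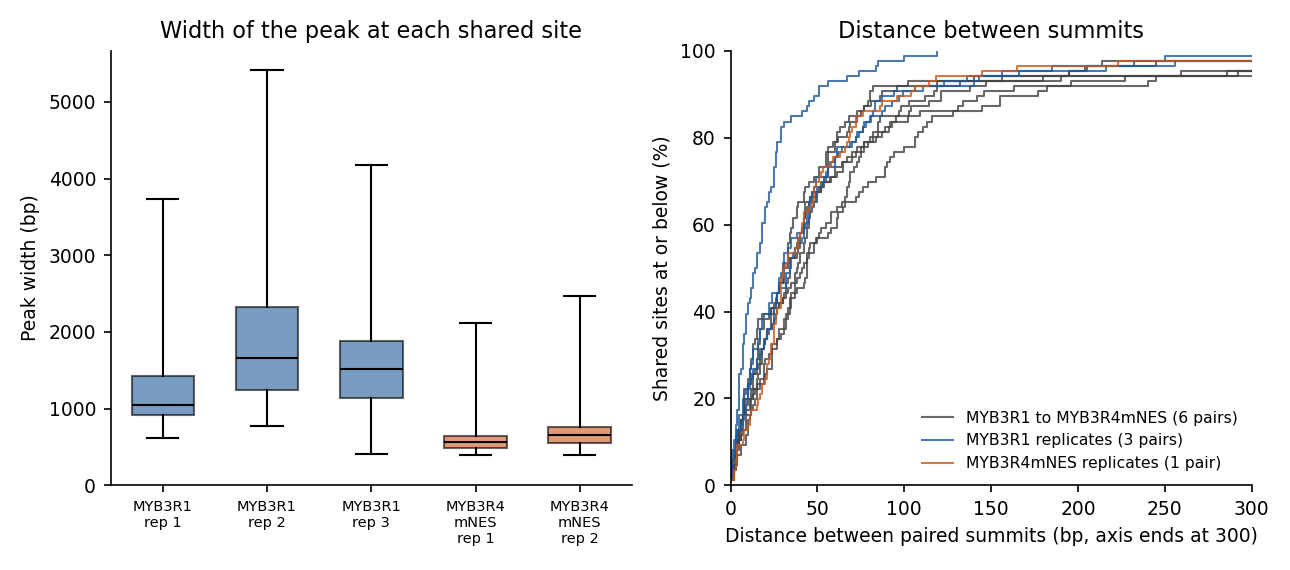
Left, width in bp of the peak of each library at the 86 sites called in all 5 (box, quartiles with the median as a line; whiskers, lowest and highest value). Right, share of these sites (vertical axis, percent) whose paired summits lie at or below a distance (horizontal axis, bp), with a line for each library pair. Median widths are 1044 to 1654.5 bp for MYB3R1 and 569.5 and 655.5 bp for MYB3R4mNES, and the lines of most pairs run together.

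The order of strength among the 86 shared sites differed between the proteins. As a description over sites that share libraries, Spearman's rho of the fold enrichment was 0.887 to 0.935 between MYB3R1 replicates (n = 86 sites), 0.702 between MYB3R4mNES replicates and 0.398 to 0.541 between the groups. The ranks of the groups did not overlap at 45 of the 86 sites. A random order of 3 and 2 libraries separates them at a share of 0.20, the lowest p of the exact permutation test. The sites stood at a median percentile of 99.3, 99.5 and 98.3 in the MYB3R1 lists and of 73.4 and 79.1 in the much shorter MYB3R4mNES lists.

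Several sites ranked high for MYB3R1 and low for MYB3R4mNES, named here after their ranks were seen. CSLD5, a cellulose synthase-like gene whose product acts at the cell plate, had a mean rank of 18.3 in MYB3R1 and 71.0 in MYB3R4mNES. Its fold enrichment was 18.4, 10.6 and 10.0 in MYB3R1 and 2.17 and 3.13 in MYB3R4mNES. The AT5G40460 site ranked 2.67 against 47.8, and the AT3G12870 site 19.0 against 79.0. Other sites went the opposite way. IMK2, a receptor-like kinase gene, ranked 60.0 in MYB3R1 and 13.5 in MYB3R4mNES (9.19, 8.99 and 4.21 against 3.66 and 5.39). PMM, the phosphomannomutase gene, ranked 77.8 against 43.0.

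The OLEO1 site ranked 78.0 against 4.5, with fold enrichments of 2.56, 3.91 and 4.73 in MYB3R1 and of 4.35 and 16.7 in MYB3R4mNES. The highest value of a MYB3R4mNES list therefore rested on replicate 2. MYB3R4 replicate 3 had 16.4 at this site, and MYB3R4 replicates 1 and 2 had no peak there. Sites that were high for both included SYP111, also known as KNOLLE, the syntaxin of the cell plate (15.9, 11.4 and 8.84 against 4.45 and 5.77), and SAC9, a phosphoinositide phosphatase gene (22.3, 12.4 and 9.54 against 5.04 and 5.67).

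**Figure D4:**
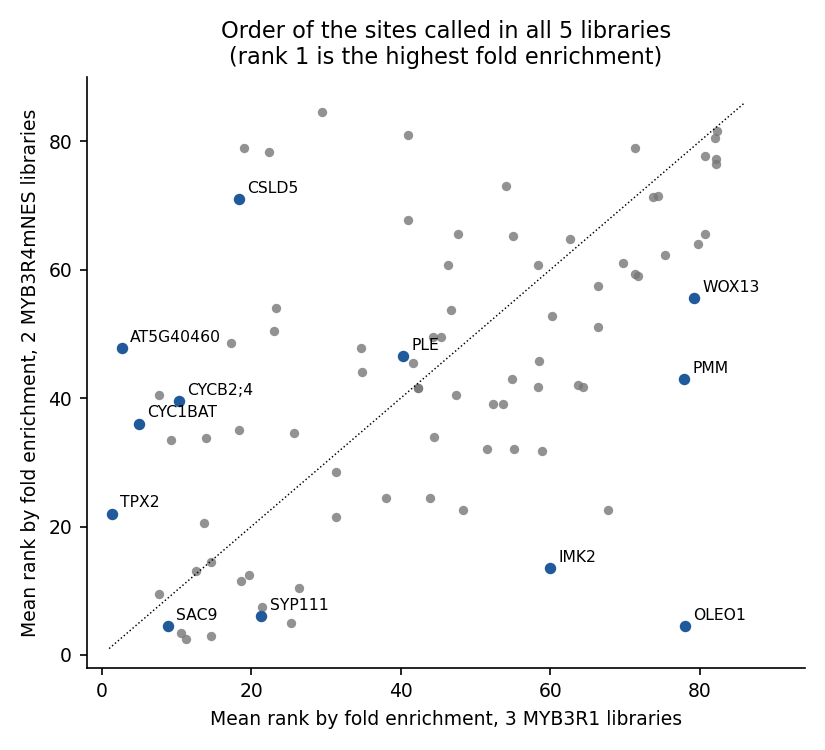
Mean rank by fold enrichment of the 86 shared sites in the 3 MYB3R1 libraries (horizontal axis) and the 2 MYB3R4mNES libraries (vertical axis); each point is a site and the dotted line marks equal ranks. Labels name a gene at the site. CSLD5 and AT5G40460 lie far above the line, OLEO1 and IMK2 far below it, and SYP111 and SAC9 are high in both.

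At the level of genes, MYB3R4mNES was called at a small subset of the MYB3R1 genes. Of 27444 nuclear protein-coding genes, 12280 (44.7%) were bound in at least 2 MYB3R1 libraries, 7382 (26.9%) in all 3, and 109 (0.397%) in both MYB3R4mNES libraries. A further count, of genes bound in at least 1 MYB3R4mNES library, gave 210 (0.765%). All 109 were among the 12280, which is 100% of the MYB3R4mNES genes and 0.888% of the MYB3R1 genes, and 108 (0.394%) were bound in all 5 libraries. The exception was PME5, at which the MYB3R1 replicate 3 summit lay outside the window. No gene (0 of 27444) was bound in both MYB3R4mNES and in no MYB3R1 library, while 7184 (26.2%) were bound in all 3 MYB3R1 and in neither MYB3R4mNES library. Without MYB3R4mNES replicate 1, 181 genes were bound by MYB3R4mNES replicate 2 and by at least 2 MYB3R1 libraries.

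At equal list length, 240 genes (0.875%) were bound in at least 2 MYB3R1 libraries and 101 (0.368%) in both MYB3R4mNES libraries, with 79 in common. All 3 MYB3R1 libraries bound 187 (0.681%) at this length. The 79 are 78.2% of the MYB3R4mNES genes and 32.9% of the MYB3R1 genes. The 22 others on the MYB3R4mNES side included OLEO1, F3H (flavanone 3-hydroxylase), PMM and WOX13 (a homeobox gene). At this length 13 genes (0.0474%) were bound in both MYB3R4mNES and in no MYB3R1 library, and 104 (0.379%) the other way. Where neighbouring genes both had the summit in their window, both were counted as bound. The annotation used gave no strand, so gene starts and gene ends were treated alike.

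Most summits lay in the window of a gene in both groups, and the groups were closer once gene-poor stretches were set aside. The share of all sequence inside these windows was not computed, and leaving out gene-poor stretches raises it by construction. The shares are therefore compared between groups only. Over all peaks, 81.7%, 80.4% and 82.4% of the MYB3R1 summits and 55.0% and 61.4% of the MYB3R4mNES summits lay in the window of a gene (81.5% ± 1.01, SD, n = 3, against 58.2% ± 4.54, SD, n = 2; difference 23.3 percentage points, and 20.1 without MYB3R4mNES replicate 1; p = 0.20, exact permutation test). Among gene-rich peaks the order turned, with 81.9%, 80.6% and 83.0% against 85.2% and 83.3% (MYB3R1 minus MYB3R4mNES -2.43 points; -1.51 without MYB3R4mNES replicate 1 and -1.22 with MYB3R1 replicate 3 alone; p = 0.20, exact permutation test). Among the 108 strongest gene-rich peaks, MYB3R1 was higher again, with 94.4%, 94.4% and 93.5% against 85.2% and 86.1% (difference 8.49 points, and 8.02 without MYB3R4mNES replicate 1; p = 0.20, exact permutation test). Among the 171 strongest peaks, gene-poor ones included, the difference was 36.5 points. The direction and size of this comparison thus depended on which peaks were compared.

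Genes of G2 and M phase were bound by MYB3R1 almost throughout and by MYB3R4mNES in part. On a list of 54 such genes, 49, 51 and 49 (90.7%, 94.4% and 90.7%) were bound in the MYB3R1 libraries. The MYB3R4mNES libraries bound 10 and 14 (18.5% and 25.9%). The groups did not overlap (92.0% ± 2.14, SD, n = 3, against 22.2% ± 5.24, SD, n = 2; difference 69.8 points, and 66.0 without MYB3R4mNES replicate 1; p = 0.20, exact permutation test). Over all genes the shares were 43.5%, 65.9% and 29.5% for MYB3R1 and 0.485% and 0.678% for MYB3R4mNES. In both groups the list thus lay above the share of all genes. At equal list length, 53.7%, 53.7% and 57.4% were bound by MYB3R1 and 18.5% and 22.2% by MYB3R4mNES (difference 34.6 points, and 32.7 without MYB3R4mNES replicate 1; p = 0.20, exact permutation test). With gene-poor stretches left out and lists of 108 peaks it was 19.1 points (39.5% against 20.4%). Over all genes the shares with the 171 strongest peaks were 0.878%, 0.893% and 0.889% against 0.485% and 0.517%. With the 108 strongest gene-rich peaks, 154, 154 and 155 genes were bound by MYB3R1 and 131 and 134 by MYB3R4mNES.

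The 10 G2/M genes bound in both MYB3R4mNES libraries were also bound in all 3 MYB3R1 libraries. TPX2, which encodes a spindle assembly factor, on chromosome 1 at 947520 to 951850, had fold enrichments of 26.1, 12.6 and 15.2 in MYB3R1 and of 3.15 and 4.73 in MYB3R4mNES. It ranked first or close to first among the shared sites in MYB3R1. The B-type cyclin gene CYC1BAT had 22.5, 12.4 and 11.98 against 3.50 and 3.27. CYCB2;4 had 18.8, 11.9 and 12.1 against 3.32 and 3.24, and CYCB2;2 had 13.3, 9.87 and 8.14 against 2.78 and 3.35. B-type cyclins drive entry into mitosis. The other B-type cyclin genes on the list, CYCB1;1, CYCB1;3, CYCB1;4, CYCB2;1, CYCB2;3 and CYCB3;1, had no MYB3R4mNES peak.

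CDC20.1 and CDC20.2 encode activators of the anaphase-promoting complex and are neighbours on chromosome 4. The same MYB3R4mNES summits, at 3.72 and 3.85, counted for both, so they are not independent. These summits, at 16043466 and 16043499, lie at the end of CDC20.2 that faces CDC20.1, where MYB3R1 had 10.9, 9.01 and 6.16. The stronger MYB3R1 summits of CDC20.1 (18.9, 9.08 and 9.79) lie at 16046886 to 16046900, at the other end of that gene, where MYB3R4mNES had no summit. PLE, which encodes a microtubule bundling protein of the phragmoplast (MAP65-3), had 10.9, 9.88 and 7.26 in MYB3R1 and 2.76 and 3.46 in MYB3R4mNES. AT1G63100 had 21.6, 11.8 and 8.69 against 3.37 and 4.29. With SYP111 and CSLD5, described above, these make up the 10.

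A further 4 G2/M genes were bound in MYB3R4mNES replicate 2 and not in replicate 1. They were the spindle checkpoint genes MAD2 (3.13) and BUBR1 (2.86), the kinesin gene TES (2.42) and the microtubule end-binding gene EB1C (2.36). At BUBR1 the MYB3R4mNES summit, at 14216997, lay outside the gene, which ends at 14216054. The strongest MYB3R1 summits of BUBR1 lay elsewhere, inside the gene at 14215982 to 14216003. The MYB3R1 values of these 4 genes, 7.18 to 10.5 in replicate 1, were in the range of genes without any MYB3R4mNES peak. All 3 MYB3R1 libraries and neither MYB3R4mNES library bound 34 of the 54 genes. Strong ones among these were KINESIN-12B, which encodes a phragmoplast kinesin (14.8, 10.6 and 7.61), the cyclin genes CYCB1;4 (13.6, 10.8 and 7.99) and CYCA1;1 (13.6, 10.8 and 8.32), and HIK, which encodes a kinesin needed for cytokinesis (12.3, 9.97 and 8.23). CYCA2;3, AUR2, an Aurora kinase gene, and FZR3 were bound in none of the 5 libraries. At CYCA2;3 and FZR3 a peak of all 3 MYB3R1 libraries reached the window with its summit outside it, and at AUR2 no peak did. ATN, counted among the genes without MYB3R4mNES, likewise had a peak of both MYB3R4mNES libraries (4.78 and 5.69) reaching its window, with the summits outside it and in the window of its neighbour AT3G05345.

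The G2/M genes with both MYB3R4mNES libraries stood higher in MYB3R1. Their median MYB3R1 fold enrichment was 18.6, 11.0 and 9.31 in replicates 1, 2 and 3 (10 genes, CDC20.1 among them with the values of its other end). It was 8.75, 7.90 and 5.66 for the 4 genes with 1 MYB3R4mNES library and 9.33, 8.43 and 5.92 for the 34 with none. The ranges met: the 34 genes reached 14.8, 10.8 and 8.32, and the lowest of the 10 were at 10.9, 9.01 and 6.16.

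**Figure D5:**
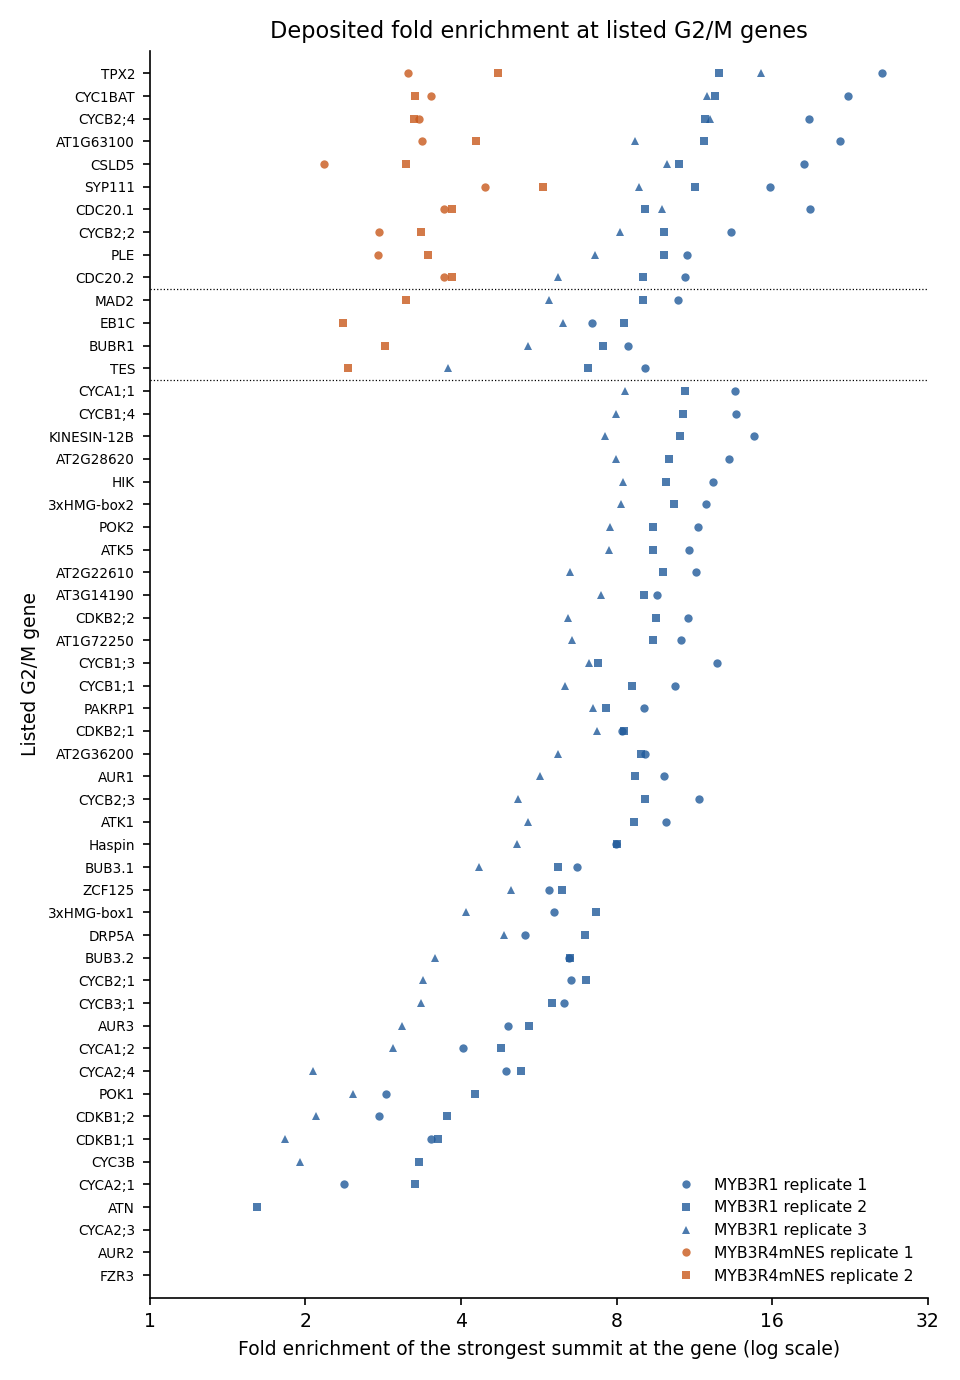
Deposited fold enrichment of the strongest summit at each of the 54 listed G2/M genes (horizontal axis, log scale) in each library; a gene with no point for a library had no summit in its window there. Genes are grouped, by dotted lines, into those bound in both MYB3R4mNES libraries (top, 10 genes), in 1 (4 genes) and in none (40 genes), and ordered within a group by their percentile in MYB3R1. The values of the top group in MYB3R1 reach 26.1, and its MYB3R4mNES values lie between 2.17 and 5.77.

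The other lists are read against all genes, of which 44.7% were bound in at least 2 MYB3R1 libraries, 26.9% in all 3 and 0.765% in at least 1 MYB3R4mNES library. With lists of 13 to 36 genes, 0 or 1 gene bound by MYB3R4mNES is not read as a difference from all genes. Of 30 genes of S phase and DNA replication, 27 (90.0%) were bound in at least 2 MYB3R1 libraries, 26 in all 3, and 0 in either MYB3R4mNES library. The 30 include MCM5, which lies in the stretch of chromosome 2 left out and could not be called. The MYB3R1 shares of 90.0%, 93.3% and 86.7% stood against 0% and 0% (p = 0.20, exact permutation test). PRL, which encodes the replication helicase subunit MCM7 (13.4, 9.39 and 9.79), and the replication licensing genes CDT1A (11.3, 8.56 and 9.76) and CDT1B (9.29, 8.47 and 5.96) were the strongest. At equal list length MYB3R1 kept 3, 4 and 5 of the 30 and MYB3R4mNES 0 and 0, a difference of 13.3 points, with and without MYB3R4mNES replicate 1, that also cannot pass the test.

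Of 26 G1 cyclins, CDK inhibitors and related genes, 17 (65.4%) were bound in at least 2 MYB3R1 libraries and 1, AT5G40460, in both MYB3R4mNES libraries. Of 15 genes of MYB3R, E2F and retinoblastoma-complex proteins, 13 (86.7%) were bound in at least 2 MYB3R1 libraries, none in both MYB3R4mNES libraries and 1, the MYB3R1 gene, in 1. RBR1, the retinoblastoma-related gene, had 8.06, 7.06 and 5.37 in MYB3R1. The MYB3R4 gene (MYB3R-4) had 7.33, 7.25 and 5.09 in MYB3R1 and no MYB3R4mNES peak. Of 13 nuclear transport genes, 9 (69.2%) were bound in at least 2 MYB3R1 and 0 in any MYB3R4mNES library; IMPA-6, an importin alpha gene, was the strongest (12.3, 10.1 and 7.39).

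Of 36 cytokinin genes, 21 (58.3%, against 44.7% of all genes) were bound in at least 2 MYB3R1 libraries, and 1 in a MYB3R4mNES library (0.765% of all genes). This was CRF2, a cytokinin response factor gene, with 6.72, 6.53 and 2.96 in MYB3R1 and 2.69 in MYB3R4mNES replicate 2. Of 27 meristem and flower genes, 14 (51.9%) were bound in at least 2 MYB3R1 libraries and 7 (25.9%) in all 3, near the 44.7% and 26.9% of all genes. By summit 0 were bound in a MYB3R4mNES library; the MYB3R4mNES replicate 1 summits over WUS and CLV3 lay outside the windows. LFY, the floral identity regulator, had 5.25, 5.46 and 4.03 in MYB3R1. Of 15 highly transcribed genes, chosen because ChIP can enrich open, active genes without specific binding, 14 were bound in at least 2 MYB3R1 libraries and 1, UBQ10 (8.85, 8.70 and 4.51 against 2.78), in MYB3R4mNES replicate 2. HSC70-1, a heat shock protein gene among them, had 11.97, 9.94 and 6.56. The share of MYB3R1 genes on this list, 93.3%, was as high as the 92.6% of the G2/M list, while its share at equal list length was 1 of 15. How much of MYB3R1 calling at active genes is independent of the protein was not tested, since no ChIP from untagged plants was at hand.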

How the data were processed

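The 5 ChIP libraries were grouped by their labels. Per the submitters' processing notes, reads were handled with FastQC, Trimmomatic, Bowtie2 and Picard on TAIR10; versions are not given in the sources used here. The peak caller and the input used for each library are not given in the sources used here, and the deposited file names state a read extension of 400 bp. Per the file format, the authors deposited for each peak a score, a fold enrichment over input (a ratio), a −log10 p-value and −log10 q-value, and, as another value, the offset of the summit from the start of the peak. Fold and p ranked peaks within a list. Peaks on organelle genomes were left out, input samples were not analysed here, and MYB3R4 lists served the peak name check and a few values set beside results. The lists hold no read counts; the depth is unknown, and neither intervals nor floors were computed.

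Genes and symbols came from a RefSeq table of TAIR10.1 without strand. Python 3.11.15, numpy 2.4.6, pandas 2.3.3 and matplotlib 3.10.9 were used. The overlap code was tested on peaks of a MYB3R1 list moved by a known shift and on added peaks placed where the list has none. The permutation code was tested on small made-up sets of numbers. Library values were compared by two-sided exact permutation tests. The members, the 8 gene lists (216 identifiers, all 216 found) and the tests were chosen with earlier results of these data known. Named genes followed a rule: the G2/M genes bound in both MYB3R4mNES libraries, in exactly 1 or in no library; up to 12 other genes bound in all 5 and up to 6 in MYB3R1 alone by percentile of fold enrichment; and up to 3 of each other list. The rule's search for sites in both MYB3R4mNES libraries and at most 1 MYB3R1 library found no bound gene. Genes at single sites, in the ranks and in the first 50 were named after their values were seen. A planned motif comparison was not run because it needs sequences.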

Additional observations from a re-analysis of the deposited data

Results flagged for a closer look

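Peaks in the sequence left out of the comparison, in which no result was drawn, passed the 3 counts that a count of 0 allows in 4 of the 5 libraries, a low bar. The plastid genome held at most 3 peaks in a library. The stretch of chromosome 2 between 3.2 and 3.7 Mb held 34 and 13 peaks in MYB3R1 replicates 1 and 3 and 56 and 41 in MYB3R4mNES replicates 1 and 2. MYB3R1 replicate 2, with the longest list, had 2 there. The mitochondrial genome held 71 and 36 peaks in MYB3R1 replicates 1 and 3 and 78 and 79 in MYB3R4mNES replicates 1 and 2, and 0 in MYB3R1 replicate 2. MYB3R1 replicate 2 was also the library that called 1 of the 60 gene-poor MYB3R4mNES sites. Its own list held 164 gene-poor peaks, the most of the 5 libraries. Whether the mitochondrial, chromosome 2 and gene-poor peaks have a common source was not tested.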

How the results depend on the processing

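Of 158 values under alternatives, 144 were counted as the same, 13 moved and 1 reversed. Tested values counted as the same when they kept their direction and side of the threshold. Overlap shares and distances did so within the spread over pairs, and numbers of shared genes within a fixed factor of the main value. No p, from 0.20 to 1 over 86 alternatives, could pass 0.05. The share of summits near a gene end turned to -2.43 points without gene-poor stretches, an alternative chosen after seeing the data. The share of MYB3R4mNES peaks overlapped was 97.5% without gene-poor stretches, 64.2% with the chromosome 2 stretch and 32.0% when 50% of both peaks had to overlap. At equal length it was 44.8% without gene-poor stretches, 14.7% with the 50% overlap and 31.3% in libraries of the same file naming style. The 50% overlap falls with unequal widths by construction. The median summit distance became 29 bp with the 50% overlap. At equal length it became 26.75 bp with it, 26 bp with 100 peaks and 34.2 bp with the chromosome 2 stretch. Genes bound by both groups at equal length numbered 40 with 100 peaks. The G2/M difference at equal length was 19.1 points without gene-poor stretches, where lists held 108 peaks. The cause of the other moves was not tested.

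Leaving out each library in turn gave differences of 9067 to 15355.5 peaks, 66.0 to 73.5 points of the G2/M list (33.3 to 36.4 at equal length), 34 to 90.5 bp in width (537 to 775 at equal length) and 20.1 to 26.5 points near gene ends (31.3 to 38.2 at equal length). Overlap ranged from 71.7% to 81.5% (34.4% to 39.2% at equal length), summit distance from 34 to 42.5 bp (31 to 34.3 at equal length) and shared genes from 108 to 181 (63 to 113 at equal length). The 181 is without MYB3R4mNES replicate 1.

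With the replicate number as a block (numbers 1 and 2; smallest exact p 0.50), the differences were 15355.5 peaks, 70.4 points of the G2/M list and 22.8 points near gene ends. At the 86 shared sites the deviations of same-numbered libraries from their group means correlated at 0.202 for number 1 and -0.208 for number 2. With 2 MYB3R4mNES libraries, their deviations from the group mean are mirror images of each other. These correlations therefore cannot show whether the numbers pair libraries. The main comparisons did not treat the numbers as pairs. List length and unknown depth limit what a missing MYB3R4mNES peak says.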
